A study of Mus musculus with 4 samples.

Results

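Csf1, Il34 and Csf1r, the genes for the macrophage growth factors CSF1 and IL-34 and for the receptor that they share, were followed across the cell types of mouse testicular organoids (TOs) and mouse testes. The 3 genes were found by their symbols among the 32285 genes of the count matrices, and the question was which cells of TOs and testes carried the ligand mRNAs and which carried the receptor mRNA. The single-cell RNA sequencing (scRNA-seq) data comprised 2 TO libraries and 2 testis libraries of unsorted cells. The design text and the methods of the study give 28 days as the age of the TOs, and the design text gives the same age for the testes, whereas the dissociation protocol in the labels speaks of day 21 TOs. According to the methods of the study, the TOs were assembled from dissociated testis cells of immature ICR mice, embedded in a basement membrane extract and cultured at an air-liquid interface in medium with KnockOut serum replacement, antioxidants and hormones. TOs in culture have no blood supply. According to the study, the TOs came from independent batches and the testis libraries were biological replicates. How many animals went into a library is not given in the sources used here.

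CSF1R is a receptor tyrosine kinase of monocytes and macrophages, and its signal supports their survival, proliferation and differentiation. CSF1 is made by many mesenchymal cells as a secreted, a proteoglycan or a membrane-bound protein, whereas IL-34 is best known from neurons and keratinocytes and sustains microglia and Langerhans cells. In the testis, macrophages lie in the interstitium beside Leydig cells and on the surface of the tubules, and they depend on CSF1R signalling.

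In the GRCm38 build, with the GENCODE vM21 annotation, Csf1 (ENSMUSG00000014599) lies on the reverse strand of chromosome 3 from 107741048 to 107760469. Il34 (ENSMUSG00000031750) lies on the reverse strand of chromosome 8 from 110741829 to 110805924, and the genes Gm15894 and Gm15895 overlap it on the other strand. Csf1r (ENSMUSG00000024621) lies on the forward strand of chromosome 18 from 61100598 to 61132149 and is overlapped on the other strand by Hmgxb3. The 3′ kit named in the labels marks the strand of a transcript.

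After filtering, TO replicate 1 kept 9802 cells and TO replicate 2 kept 8713, and the testis libraries kept 9867 and 9516. Their medians were 5480 and 7561 unique molecular identifiers (UMIs) per cell in TOs and 2549 and 3271 in testes. The libraries shared 30 to 55 cell barcodes pairwise, at most 0.440% of a library. Cells were grouped into 11 named types from marker genes, and each name means "like" that type, since the study's own annotation was not used. A level is the number of UMIs of the gene for every 1000000 UMIs of the summed cells of a type (CPM), with exact 95% Poisson intervals where shown, which cover counting error only. TO and testis cells of a type were compared with the edgeR quasi-likelihood test on the summed UMIs, and a gene was called where its log2 fold change was beyond 1 in either direction and its adjusted p (Benjamini-Hochberg) was below 0.01.

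The macrophage cluster passed the check of its label. All 6 macrophage markers, Ptprc, Cd68, Cd74, C1qa, Adgre1 and Lyz2, were detected in at least 10% of its cells in every library. In contrast, the pericyte and endothelial clusters held few cells with their markers in TOs. In the 61 and 75 TO cells of the pericyte cluster, Rgs5 stood at 0 and 9.81 CPM, against 974 and 1496 CPM in the 217 and 145 testis cells. The testis cells of this cluster also had 12705 and 11871 CPM of Acta2 and 2115 and 2352 CPM of Myh11, both smooth muscle genes. Pericytes and smooth muscle cells were thus not separated in it, and "testis pericytes" below means its testis cells. Pecam1 had 0 UMIs in the 67 and 79 TO cells of the endothelial cluster, against 308 and 274 CPM in the testis cells. The TO cells of the endothelial cluster had 680 and 576 CPM of Cldn11 and 286 and 240 CPM of Sox9. Both are genes of Sertoli cells, and the testis cells had at most 3.05 CPM of either. The Sertoli markers Aard and Rhox8 were also higher in the TO cells. Wt1 had 921 and 579 CPM there but also 407 and 320 CPM in the testis cells, and Amh had 0 UMIs in both. These TO cells also had 441 and 546 CPM of Pax8 and 204 and 263 CPM of Epcam, markers of mesothelial or rete epithelial cells. The testis cells had 0 CPM of Pax8 and at most 13.7 CPM of Epcam. The TO cells of the pericyte cluster had 2333 and 2375 CPM of the stromal gene Dcn, where the testis cells had 24.0 and 4.27 CPM. The same TO cells had 3534 and 4077 CPM of Acta2. They had 59.8 and 174 CPM of the pericyte marker Notch3, against 380 and 667 CPM in the testis cells. These clusters were therefore described but not tested between TOs and testes, a choice made after the data had been seen.

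Csf1 was carried by the interstitial and peritubular cells of both TOs and testes. Its level in stromal cells was 110 CPM (95% interval, 104 to 116) in TO replicate 1 and 132 (127 to 136) in TO replicate 2, and 137 (119 to 158) and 134 (115 to 156) in testis replicates 1 and 2. Peritubular myoid and smooth muscle cells, the contractile cells around the tubules, had 111 and 104 CPM in TOs and 56.0 and 82.5 CPM in testes. In Leydig cells, the androgen-producing cells of the interstitium, the level was 46.6 and 38.4 CPM in TOs and 42.2 and 41.6 CPM in testes. Stromal cells, myoid cells and Leydig cells together held 93.4% and 96.3% of the Csf1 UMIs of the TO libraries and 89.6% and 93.8% of those of the testis libraries. These 3 types made up 70.5% and 73.8% of TO cells, but only 16.6% and 10.9% of testis cells.

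**Figure D1:**
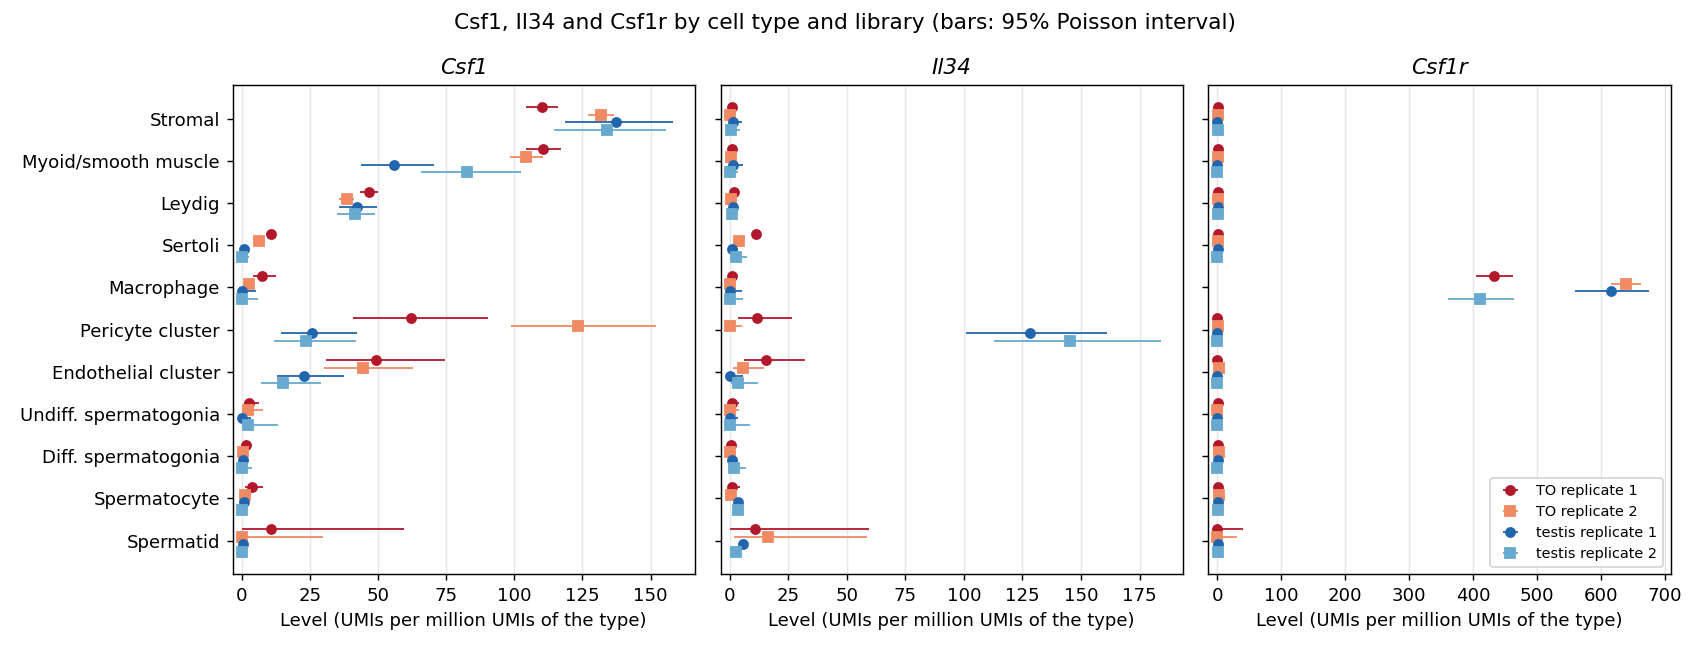
Level of Csf1, Il34 and Csf1r (CPM, linear axes) in 11 cell types of the 2 TO libraries (red and orange) and the 2 testis libraries (dark and light blue), with exact 95% Poisson intervals. Csf1 is spread over stromal, myoid and Leydig cells, Il34 stands out at 128 and 145 CPM in the testis cells of the pericyte cluster, and Csf1r is near 0 outside macrophages.

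The order of the types was stromal, myoid, Leydig in testes, with mean levels of 136 ± 2.40, 69.2 ± 18.7 and 41.9 ± 0.485 CPM (SD, n = 2 libraries) and library ranges that did not overlap between neighbours. In TOs the same order held by the means, 121 ± 15.3, 108 ± 4.46 and 42.5 ± 5.77 CPM, but the ranges of stromal and myoid cells overlapped. The TO cells of the pericyte cluster had 62.1 and 123 CPM, and the testis pericytes 25.7 and 23.5 CPM. The endothelial cluster had 49.2 and 44.3 CPM in its TO cells and 22.9 and 15.2 CPM in testes. Its TO cells carried genes of Sertoli cells and of mesothelial or rete epithelial cells.

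Within the types, Csf1 differed between clusters. The stromal cluster led by Adam12, Sned1 and Ebf1 had 127 and 144 CPM in the TO libraries and 148 and 146 CPM in the testis libraries. The stromal cluster led by Clec3b, Mfap5 and Lum had 91.1, 118, 125 and 125 CPM and was the lower one of this pair in every library. Another stromal cluster, led by B3galt1, Carmn and Dmd, had 104 and 93.7 CPM in its 202 and 80 TO cells. The Leydig cluster with Cyp17a1, Hsd3b6 and Insl3 among its leading genes, which encode steroidogenic enzymes and a peptide hormone of mature Leydig cells, had 51.6, 44.3, 43.8 and 41.4 CPM. A smaller Leydig cluster led by Eya1, Adh1 and Klhl14 had 16.6 and 16.9 CPM in TOs and 15.2 CPM, from 3 UMIs, in testis replicate 1. Another, led by Sult1e1, had 21.3 and 4.26 CPM in its 52 and 47 TO cells, from 5 and 1 UMIs. These values are a description, since the cells were clustered on the same data.

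No difference in Csf1 between TOs and testes was called in its main source types. In stromal cells, the log2 fold change (TO over testis) was -0.06 (SE 0.22, adjusted p = 0.853), while 17.6% of the 15562 genes tested were called. In Leydig cells it was -0.06 (SE 0.23, adjusted p = 0.880), with 14.1% of 15464 genes called. In myoid cells the TO libraries were the higher ones, without overlap, but the log2 fold change of 0.63 (SE 0.25) had an adjusted p of 0.0769 and was not called, with 21.6% of 14948 genes called. Counting error alone gave a ratio of TO to testis of 0.915 (95% interval, 0.822 to 1.02) in stromal cells, 1.01 (0.894 to 1.15) in Leydig cells and 1.59 (1.35 to 1.89) in myoid cells.

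Sertoli cells, the nurse cells inside the tubules, differed. Csf1 had 155 and 48 UMIs in the 1552 and 736 TO Sertoli cells and 2 and 0 UMIs in the 469 and 253 testis Sertoli cells, so that the levels were 10.7 and 6.44 CPM in TOs and 0.774 and 0 CPM in testes. The groups did not overlap, and edgeR called the difference, with a log2 fold change of 4.14 (SE 0.76, adjusted p = 0.00369). Among the 14532 genes tested in Sertoli cells, 30.1% were called. As the testis libraries had 2 Csf1 UMIs in all, the pooled ratio of 18.2 had a 95% counting interval of 4.98 to 151. Without testis replicate 1, the only library with testis UMIs, the remaining testis library had 0 UMIs, so the fitted log2 fold change of 9.09 is no bound, and its adjusted p of 0.0104 is not a call. With doublets kept it was 2.83 (adjusted p = 0.0167), also not a call.

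The level in TO Sertoli cells was low beside that of other TO cells, and some other transcripts of interstitial cells moved with it. Dcn, which encodes the matrix proteoglycan decorin of stromal cells, was called in Sertoli cells at a log2 fold change of 4.29 (edgeR, adjusted p = 0.000321), with 99.4 and 57.0 CPM in TOs and 5.81 and 1.47 CPM in testes, though not with doublets kept. Lyz2, the lysozyme gene of macrophages, was called in the same cells at 4.46 (edgeR, adjusted p = 7.27e-05), with 33.9 and 29.6 CPM in TOs and 1.55 and 1.47 CPM in testes. It was the only one called in Sertoli cells of 6 macrophage genes, C1qa, C1qb, C1qc, Cd74, Lyz2 and Tyrobp, beside 30.1% of all genes. The median log2 fold change of the 6 was 1.83, beside 0.01 over all genes tested in Sertoli cells. Of the 6, 4 had an unadjusted p below 0.05 (edgeR). Tyrobp had 3.17 and 3.89 CPM in TO Sertoli cells and 0.387 and 1.47 CPM in testis Sertoli cells. Cd74 had 1.10 and 3.35 CPM in TO Sertoli cells and 31.7 and 1.47 CPM, from 82 and 2 UMIs, in testis Sertoli cells. In macrophages themselves, Lyz2 had 27373 and 23052 CPM in TOs and 5587 and 4813 CPM in testes. For every 1000 UMIs of the stromal genes Dcn, Lum and Col1a1, TO Sertoli cells had 93.4 (95% interval, 79.3 to 109) and 86.5 (63.8 to 115) Csf1 UMIs. TO stromal cells had 13.9 and 15.4, TO myoid cells 38.3 and 27.2, and TO Leydig cells 159 and 164. Germ cells of the TOs had 2.49 and 0.985 CPM of Csf1, and TO macrophages 7.56 and 2.68 CPM. Over all cells, the Csf1 level was 55.2 and 70.3 CPM in TOs and 10.3 and 8.98 CPM in testes. The part of free RNA from other cells in the Csf1 of Sertoli cells was not tested. After each cell was thinned to 1500 UMIs, 1.50% and 0.964% of TO Sertoli cells had a Csf1 UMI, against 0.441% and 0.288% of TO germ cells. The thinned testis Sertoli cells had a Csf1 UMI in 0 of 469 and 0 of 253 cells, which allows a share of up to 0.640% and 1.19%. Before thinning, the shares were 7.60% and 5.84% in TO Sertoli cells, at median depths of 10051 and 11340 UMIs, and 1.80% and 0.857% in TO germ cells, at 7224 and 8660 UMIs. Thinning left out 23 and 10 TO Sertoli cells of lower depth.

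The difference in Csf1 between Sertoli cells and the other types was also tested. The log2 fold change in stromal, Leydig and myoid cells was lower than that in Sertoli cells by 3.93, 4.00 and 3.57 (edgeR interaction terms with each type of a library as a separate sample, adjusted p = 0.0132, 0.0148 and 0.0216). None of these passed the adjusted p of 0.01 used for calls.

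**Figure D2:**
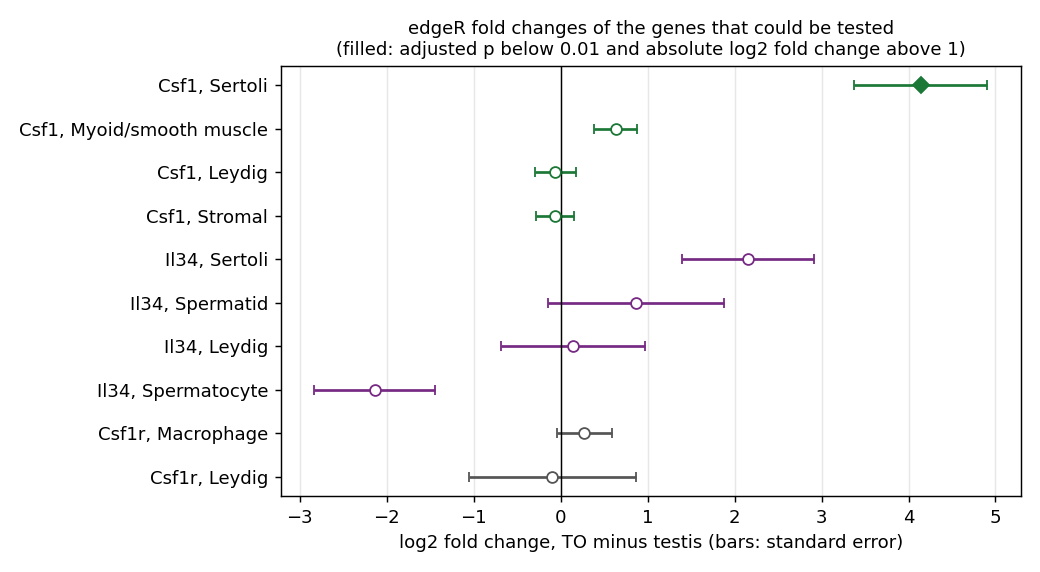
log2 fold changes between TOs and testes (edgeR, bars are standard errors) for each gene and cell type that passed the filter on low counts, with called genes filled. Csf1 in Sertoli cells, at 4.14, is the only called value, and Csf1 in stromal and Leydig cells lies at -0.06.

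Il34 showed another distribution. In testes it was highest in the cluster named for pericytes, the mural cells of small vessels, with 75 and 68 UMIs in 217 and 145 cells. Its level there was 128 CPM (95% interval, 101 to 161) and 145 CPM (113 to 184). These testis cells also carried smooth muscle genes. The next named type by the mean of the libraries, spermatids, had 5.58 and 2.57 CPM, and spermatocytes had 3.67 and 3.68 CPM, so that the order of these types changed between the libraries. After thinning to 1500 UMIs per cell, 20.3% and 20.7% of testis pericytes had an Il34 UMI, from 25.3% and 31.7% before thinning. The TO cells of this cluster had 5 and 0 Il34 UMIs, or 11.5 and 0 CPM. In these TO cells, only 1 and 2 of the 6 pericyte markers were detected in at least 10% of cells. Hence it cannot be told apart whether TOs lacked pericytes or whether their pericytes had less Il34 mRNA.

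Spermatids, with 5497 of 9867 and 6402 of 9516 cells in the testis libraries, held a larger part of the Il34 UMIs than pericytes. Their level, 5.58 and 2.57 CPM, was not above that over all cells of these libraries, 5.61 and 3.87 CPM. Spermatids had 141 of 252 Il34 UMIs in testis replicate 1 (56.0%, 95% exact binomial interval 49.6 to 62.2) and 80 of 181 in testis replicate 2 (44.2%, 36.8 to 51.8). Pericytes held 29.8% (24.2 to 35.8) and 37.6% (30.5 to 45.1) of the UMIs with 2.20% and 1.52% of the cells. Spermatocytes contributed 20 UMIs in each testis library, at 3.67 and 3.68 CPM.

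The spermatid signal was weak in each cell. A UMI of Il34 was seen in 2.47% and 1.20% of testis spermatids (0.964% and 0.531% after thinning), at median depths of 2022 and 2964 UMIs. In testis macrophages, at median depths of 3070 and 4284 UMIs, it was seen in 0 of 232 and 0 of 148 cells, which allows a share of up to 1.29% and 2.03%. The ratio to pericyte transcripts differed between the cells. For every 1000 UMIs of the pericyte genes Rgs5, Notch3 and Higd1b, testis pericytes had 78.6 and 58.1 Il34 UMIs, and testis spermatids 5423 and 4000. The part of free RNA from other cells in the Il34 of spermatids was not tested. Among spermatid clusters of testes, the cluster led by Gabrg3, Cntn5 and Lrrc4c had 14.7 and 8.61 CPM, and the cluster led by Gm20125 and Ppfia2 had 10.3 and 12.0 CPM. The cluster with the late gene Prm2, which encodes a protamine, among its leading genes together with Car2 and Tppp2 had 0 and 0.211 CPM. These values came from 0 and 1 UMIs in 62 and 1097 cells. The cluster led by Tnp2 and Tex37 also came mostly from testis replicate 2, with 55 and 1346 cells. The spermatid values of the testis libraries therefore cover different mixtures of clusters.

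**Figure D3:**
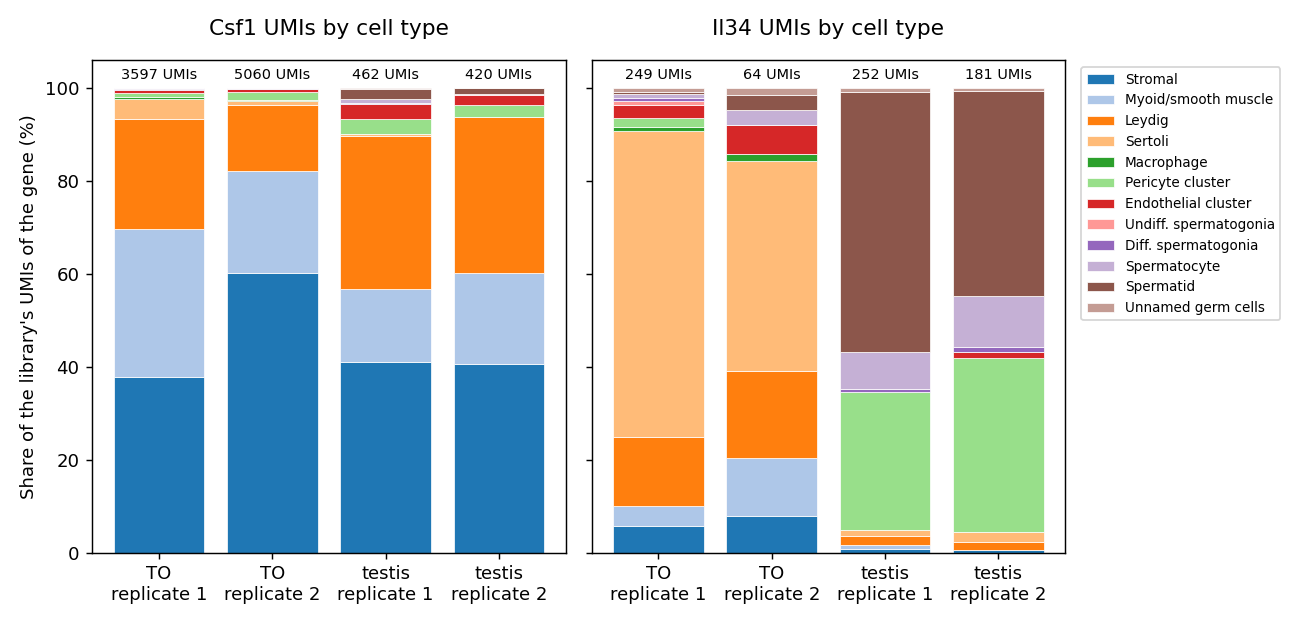
Share of each library's Csf1 UMIs (left) and Il34 UMIs (right) that came from each cell type, in percent, with the number of UMIs above each bar. Stromal, myoid and Leydig cells fill most of the Csf1 bars in all 4 libraries, whereas Il34 comes mainly from spermatids and pericytes in testes and from Sertoli cells in TOs.

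In TOs, Sertoli cells were the main source of Il34 UMIs. They held 164 of 249 UMIs in TO replicate 1 (65.9%, 95% exact binomial interval 59.6 to 71.7) and 29 of 64 in TO replicate 2 (45.3%, 32.8 to 58.2). Their level was 11.3 CPM (9.62 to 13.2) and 3.89 CPM (2.60 to 5.58) in TOs, and 1.16 CPM (0.239 to 3.39) and 2.93 CPM (0.80 to 7.51) in testes, from 3 and 4 UMIs. TO replicate 2 lay closer to testis replicate 2 than to TO replicate 1. The log2 fold change of 2.15 (SE 0.76) was not called (edgeR, adjusted p = 0.0501), but it was called without TO replicate 2, at 2.66 (adjusted p = 0.00215). A second Sertoli cluster led by Tsx had 14.7 and 8.53 CPM in TOs, from 9 and 3 UMIs, and 0 and 6.41 CPM in testes, from 0 and 2 UMIs. No Sertoli marker was among the leading genes of this cluster.

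In the other types no difference in Il34 was called. In spermatocytes, Il34 had 1.20 and 0.769 CPM in TOs, from 2 UMIs each, and 3.67 and 3.68 CPM in testes. The log2 fold change of -2.14 (SE 0.69, adjusted p = 0.0191) was not called, although 45.3% of the 14086 genes tested in spermatocytes were. In Leydig cells, the log2 fold change was 0.14 (SE 0.83, adjusted p = 0.922). The 32 and 29 TO spermatids had 1 and 2 UMIs, and the log2 fold change was 0.87 (SE 1.02, adjusted p = 0.574). Their spermatid markers summed to 799 and 1547 CPM, against 9177 and 44821 CPM in testis spermatids. They also had 512 and 332 CPM of the stromal gene Dcn, against 5.73 and 3.89 CPM in testis spermatids. In spermatids, 0% of the 16553 genes were called by edgeR, although 4369 had an unadjusted p below 0.05 and DESeq2 called 1113 genes.

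Csf1r was found in macrophages. It had 858 and 2856 UMIs in the 270 and 695 macrophages of TOs and 442 and 256 in the 232 and 148 macrophages of testes. The level was 433 CPM (95% interval, 404 to 463) and 639 CPM (616 to 663) in TOs and 615 CPM (559 to 675) and 410 CPM (361 to 463) in testes. Thus the groups overlapped, with a lower and a higher library in each. The log2 fold change of 0.27 (SE 0.31, adjusted p = 0.576) was not called, while 19.6% of the 10805 genes tested in macrophages were. Macrophages held 95.8% and 97.3% of the Csf1r UMIs of the TO libraries and 93.6% and 91.1% of those of the testis libraries. A Csf1r UMI was seen in 85.2% and 95.7% of TO macrophages and in 80.2% and 72.3% of testis macrophages. After thinning to 1500 UMIs, which left out 1 cell in each TO library, the shares were 46.5% and 61.1% in TOs and 53.9% and 38.5% in testes.

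Outside macrophages, the highest level in any type was 1.29 and 2.86 CPM in the TO libraries and 1.40 and 0.919 CPM in the testis libraries. The level was also set against other macrophage transcripts. For every 1000 UMIs of C1qa, C1qb, C1qc, Cd74, Lyz2 and Tyrobp, TO macrophages had 15.9 Csf1r UMIs (95% interval, 15.4 to 16.4) and all other TO cells 13.8 (11.4 to 16.5). In testes the values were 28.2 (26.2 to 30.4) and 37.6 (28.3 to 48.9). In testes the ratio turned on C1qb, which had 671 UMIs in the spermatids of testis replicate 2 and 38 in those of testis replicate 1. Without C1qb, a choice made after the values were seen, the ratio was 33.0 (30.6 to 35.5) in testis macrophages and 80.8 (60.8 to 105) in the other testis cells, and 17.0 (16.5 to 17.6) and 14.8 (12.2 to 17.7) in TOs. The part of free macrophage RNA in the Csf1r of these cells was not tested. In Leydig cells, with 8 and 23 UMIs in TOs and 5 and 1 in testes, the log2 fold change was -0.10 (SE 0.96, edgeR adjusted p = 0.956).

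Macrophages themselves had little ligand mRNA. Csf1 had 15 and 12 UMIs in TO macrophages, or 7.56 CPM (4.23 to 12.5) and 2.68 CPM (1.39 to 4.69), and 0 UMIs in the testis macrophages of either library. Against a floor of 3 counts over both testis libraries, the pooled level in TOs was at least 1.87-fold higher. The gene did not pass the filter on low counts in macrophages and was not tested. Dcn moved the same way in these cells, with 125 and 89.2 CPM in TOs and 6.96 and 1.60 CPM in testes, and the part of stromal RNA in the Csf1 of TO macrophages was not tested. For every 1000 UMIs of Dcn, Lum and Col1a1, TO macrophages had 47.9 (26.8 to 79.0) and 20.7 (10.7 to 36.1) Csf1 UMIs. Il34 had 2 and 1 UMIs in TO macrophages and 0 in testis macrophages.

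Re-clustering of the macrophages alone separated TO and testis cells in part. Subcluster 1 and subclusters 4 and 5 came from TOs, subcluster 2 from testes, and subcluster 3 from all 4 libraries. Csf1r had 537 and 759 CPM in subcluster 1, 686 and 449 CPM in subcluster 2, and 502, 565, 369 and 296 CPM in the TO and testis cells of subcluster 3. The lowest Csf1r value, 189 CPM, was in subcluster 4 of TO replicate 1, where TO replicate 2 had 456 CPM. The testis cells of subcluster 3 were high in Cd74, the invariant chain of MHC class II, with 3156 and 5309 CPM, against 45.0 and 6.45 CPM in subcluster 2. In both testis libraries the Cd74-high subcluster had the lower Csf1r level of the pair. The testis cells of subcluster 3 also had 140 and 120 CPM of the proliferation gene Mki67, against 5.40 and 2.15 CPM in subcluster 2. The TO cells of subcluster 3 had 436 and 502 CPM of Mki67 and 38.4 and 323 CPM of Cd74. Whether the lower Csf1r level went with Cd74 or with Mki67 was not tested. Of the 27 Csf1 UMIs of TO macrophages, 7 in each library were in subcluster 5, at 19.4 and 11.2 CPM.

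**Figure D4:**
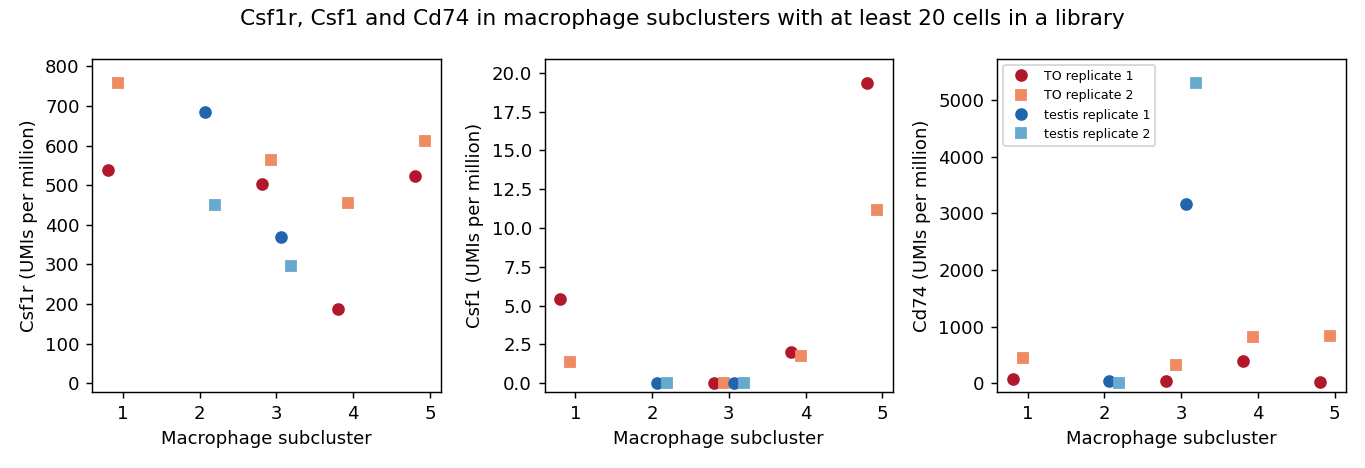
Level of Csf1r, Csf1 and Cd74 (CPM) in macrophage subclusters with at least 20 cells in a library, 1 point for each library. Csf1r is present in every subcluster, Csf1 is highest in subcluster 5 of the TOs at 19.4 and 11.2 CPM, and Cd74 in the testis cells of subcluster 3 at 3156 and 5309 CPM.

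Per macrophage, both TO libraries had more Csf1 UMIs and fewer Il34 UMIs in other cells than both testis libraries. For each macrophage, there were 13.3 and 7.26 Csf1 UMIs in the other cells of the TO libraries and 1.99 and 2.84 in those of the testis libraries. The means were 10.3 ± 4.25 and 2.41 ± 0.599 (SD, n = 2 libraries each), and the exact two-sided permutation test gave p = 0.333, the smallest value that 2 against 2 libraries can give. TOs held 11.4 and 4.77 stromal cells for each macrophage and testes 2.56 and 2.84, and TO cells had more UMIs per cell. The part of depth and of cell numbers in the difference was not tested. Il34 UMIs of other cells were 0.915 and 0.0906 for each macrophage in TOs and 1.09 and 1.22 in testes (exact permutation p = 0.333). TO replicate 1 lay closer to testis replicate 1 than to TO replicate 2. Among somatic cells alone, the Csf1 level was 61.3 and 76.7 CPM in TOs and 41.3 and 47.5 CPM in testes, and macrophages made up 3.05% and 8.67% of the somatic cells of TOs and 8.64% and 8.84% of those of testes.

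**Figure D5:**
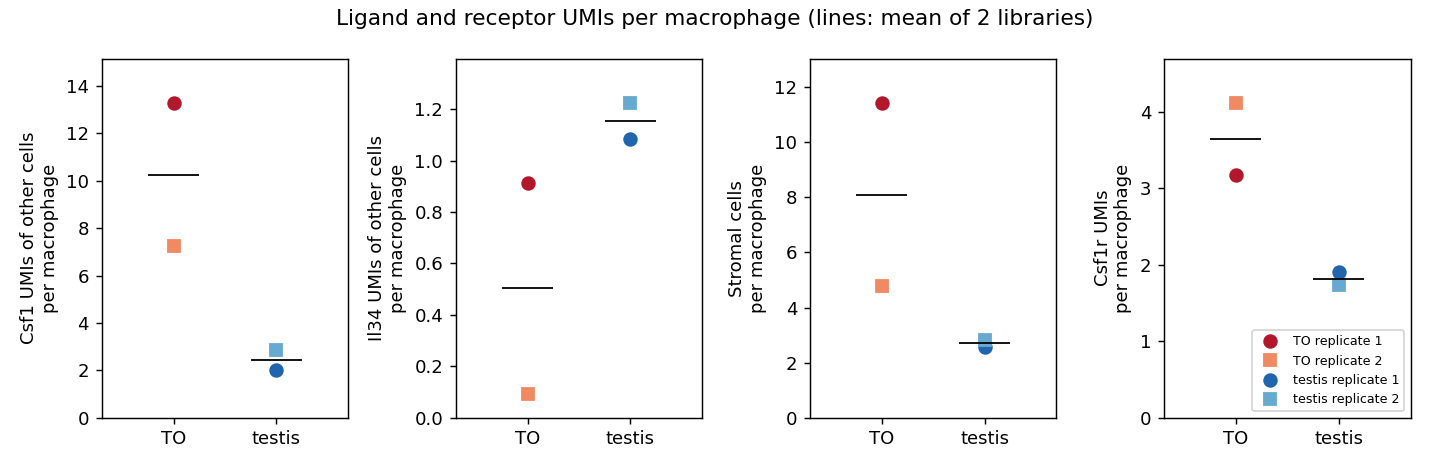
Csf1 and Il34 UMIs of all other cells, stromal cells and Csf1r UMIs for each macrophage, in the 2 TO and the 2 testis libraries, with lines at the means. Both TO libraries (13.3 and 7.26) lie above both testis libraries (1.99 and 2.84) in Csf1, and below them in Il34 (0.915 and 0.0906 against 1.09 and 1.22).

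Genes of the CSF1R pathway were counted in macrophages. Of 15 signal transducers downstream of the receptor, among them the adaptor Grb2, the kinase Akt1 and the phosphatase Inpp5d, 15 were tested and 0 were called by edgeR, where 19.6% of all genes tested in macrophages were. Their median log2 fold change was 0.50, beside 0.06 over all genes tested in macrophages. Of these genes, Pik3cd had the smallest adjusted p, 0.0400, at a log2 fold change of 0.94. At an unadjusted p below 0.05 there were 6 of them, and DESeq2 called 0.

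Of 8 transcription factors of myeloid cells, 2 were called, both higher in TOs, and 6 were not, a share near the 19.6% of all genes called in macrophages. Cebpb, a factor of inflammatory gene expression, had 396 and 548 CPM in TO macrophages and 62.6 and 159 CPM in testis macrophages (log2 fold change 2.31, SE 0.41). Irf8, which directs monocyte and macrophage development, had 267 and 261 CPM in TOs and 131 and 136 CPM in testes (1.19, SE 0.26). The call of Irf8 was lost without any 1 of the 4 libraries, at log2 fold changes of 1.12 to 1.24. Spi1, which encodes PU.1 and drives Csf1r transcription, had 345 and 436 CPM in TOs and 242 and 357 CPM in testes and was not called (edgeR, adjusted p = 0.177). Cebpb was also called in stromal, myoid and Sertoli cells, at log2 fold changes of 2.59, 2.56 and 4.27.

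Of the 3 alternative IL-34 receptors, Trem2, a receptor of macrophages and microglia, was the only one tested in macrophages. Trem2 had 1245 and 1164 CPM in TOs and 345 and 394 CPM in testes. It was called at a log2 fold change of 1.91 (SE 0.28, edgeR adjusted p = 0.000256), beside 19.6% of all genes tested in macrophages. Whether Trem2 differed more than Csf1r was not tested.

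Of 5 sheddases and proteoglycan partners, 4 were tested in macrophages and 3 were called, all higher in TOs, beside 19.6% of all genes. Adam17, the protease that releases membrane-bound CSF1 and sheds CSF1R, had 181 and 147 CPM in TOs and 97.4 and 56.1 CPM in testes (log2 fold change 1.29, SE 0.31, edgeR adjusted p = 0.00845). This call was lost without TO replicate 1 (1.18) and without testis replicate 2 (0.87), and also with DESeq2 (1.23). The other 2 were Dcn and Bgn, which are matrix genes of stromal cells. Bgn had 36 and 51 UMIs in TO macrophages and 0 in testis macrophages. Of 9 related growth factors and receptors, 4 were tested and Kitl, the gene of KIT ligand, was called higher in TOs, with 130 and 102 UMIs in TO macrophages and 3 and 1 in testis macrophages. With doublets kept, the log2 fold change of Kitl was 1.96, against 4.04, and it was not called.

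The source cells of Csf1 did not share a direction in Kitl. Stromal cells had 76.9 and 94.7 CPM of Kitl in TOs and 227 and 272 CPM in testes (log2 fold change -1.43, SE 0.23, edgeR adjusted p = 0.00457), a call that was lost without TO replicate 1 (-1.31) and without testis replicate 2 (-1.35). Leydig cells had 336 and 391 CPM in TOs and 127 and 152 CPM in testes, and the log2 fold change of 1.30 was not called (edgeR, adjusted p = 0.0125). In myoid cells it was -0.05 and not called. Among the 15 signal transducers, Stat3 was called higher in TOs in stromal cells (1.71, of 13 tested), though not without testis replicate 2 (1.60), and in myoid cells (2.29, of 13 tested). These were 1 of 13 in stromal cells, beside 17.6% of all genes, and with Pik3r1 2 of 13 in myoid cells, beside 21.6%. Pik3r1 was called in myoid cells at 1.10, but not without any 1 of the 4 libraries (0.90 to 1.22). In Leydig cells, Gab2 (1.69) was the only one called of 14 tested, beside 14.1% of all genes, and its call was lost without TO replicate 2 (1.62), testis replicate 1 (1.90) or testis replicate 2 (1.57). In Sertoli cells, 2 of 12 tested were called, beside 30.1% of all genes. Akt1, at 1.31, lost its call without TO replicate 2 (1.03), testis replicate 1 (1.33) or testis replicate 2 (1.28), and Pik3cd, at -2.93, without TO replicate 1 (-2.98), TO replicate 2 (-2.91) or testis replicate 2 (-2.33). Of 4 related growth factors and receptors tested in Sertoli cells, 1 was called, beside 30.1% of all genes. This was Flt3, the receptor of FLT3 ligand, with 3 and 0 UMIs in TOs and 11 and 8 in testes.

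The genes whose levels were most like those of the ligands and the receptor were found over 44 sums of a library and a type with at least 20 cells, among 11916 genes of at least 50 CPM in a sum. Sums of a library share its depth and its free RNA, so the correlations are a description. For Csf1 these were Fam114a1, C1s2, Gulp1, Antxr1 and Col4a5, with Pearson's r of log2(CPM + 10) from 0.961 down to 0.936. For Il34 they were Cox4i2, Higd1b, Nrip2, Olfr78 and Olfr558, with r from 0.915 to 0.896, and Higd1b is one of the pericyte markers. For Csf1r they were Fcrls, Clec4n, Laptm5, Tlr13 and Tnfaip8l2, with r from 0.998 to 0.996. Fcrls, a gene of tissue macrophages, had 274 and 446 CPM in TO macrophages and 282 and 255 CPM in testis macrophages. Clec4n, which encodes the C-type lectin dectin-2, had 363 and 457 CPM in TOs and 426 and 447 CPM in testes. The r between Csf1 and Il34 was 0.04.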

How the data were processed

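The authors deposited raw UMI counts per gene and barcode for 2 TO and 2 testis libraries (74988295 to 119966959 UMIs each). The submitters' processing notes name Cell Ranger 7.1.0 and mm10, and the annotation release is not given in the sources used here. The highest Scrublet scores were removed (scanpy 1.11.5, 0.8% per 1000 barcodes), and the cells kept had 1000 to 5000 genes, no more than 20000 UMIs and a mitochondrial share of 10% or less. Clusters came from 2000 variable genes without Csf1, Il34 and Csf1r, 30 principal components (20 for germ cells), Harmony in an implementation of its own and Leiden clustering at resolution 1. A cluster was named from markers, at least 3 of them in 10% of its cells, and markers of all types were counted among its 10 leading genes, a condition widened after seeing the data. These names were rebuilt, so values may differ from the study's for that reason.

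UMIs were summed per library and type, and tested with edgeR 4.0.16 (TMM, filterByExpr, quasi-likelihood) over all genes. DESeq2 1.42.0 was an alternative. The steps were tested on simulated data. Named genes were the 3 genes, the genes of fixed pathway lists that were called, and the 5 genes most like each of the 3. The lists and genes were chosen with earlier results of these data known. The ratios for Csf1 and Il34, the macrophage subclusters, the levels over somatic cells and a few genes named beside a result (Spi1, Pik3cd and Fcrls among them) were chosen after seeing the values. No sequence is shown.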

Additional observations from a re-analysis of the deposited data

How the results depend on the processing

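The difference of Csf1 in Sertoli cells was called under RLE size factors, DESeq2, no filter on low counts, no upper limits on genes and UMIs, no Harmony and Leiden resolution 2 (log2 fold changes 3.96 to 4.31), but not with doublets kept (2.83), and without 1 library it ran from 3.55 to 9.09. It could not be tested where genes 5 times higher in other cells were left out, since Csf1 was among them. Il34 in Sertoli cells was called without the filter on low counts (2.31), and without 1 library it ran from 1.17 to 2.66 and 2.82. Small differences changed sign without a call. Csf1 in Leydig cells was 0.087 without the filter, 0.084 with doublets kept and 7.38e-05 with no upper limits, and from -0.19 to 0.070 without 1 library. Csf1 in stromal cells was 0.094 without the filter and ran from -0.31 to 0.041 without 1 library (0.000118 without testis replicate 1). Csf1r in macrophages ran from -0.069 to 0.56 (-0.000431 without TO replicate 2), and Csf1 in myoid cells from 0.36 to 0.86. Csf1r in Leydig cells was 0.042 without the filter, 1.43 without testis replicate 1 and -0.76 without testis replicate 2. Il34 in Leydig cells was 0.54 without testis replicate 1, -0.098 without testis replicate 2 and -0.10 with no upper limits, and Il34 in spermatids -1.03 with no upper limits. Il34 in spermatocytes was called with no Harmony (-2.60, adjusted p = 0.00472).

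With the replicate block, edgeR gave 4.24 for Csf1 in Sertoli cells (adjusted p = 0.000266) and changed no call of the 3 genes. The replicate numbers link only 2 pairs, with correlations of -0.02 to 0.17 between their deviations, and no label says that they share a culture or animal.

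Stromal cells held 40.9% of testis Csf1 UMIs on average, 36.0% with doublets kept, 39.7% with no upper limits and 41.3% with no Harmony, and Leydig cells 33.2%, or 34.0% with doublets kept. Pericytes held 33.7% of testis Il34 UMIs, or 22.5% with no upper limits, at a level of 137 CPM, or 116 CPM with doublets kept. Without 1 library, the Csf1 share of TO stromal cells was 37.8% or 60.1%, of TO myoid cells 22.0% or 32.0%, of testis stromal cells 40.7% or 41.1% and of testis Leydig cells 32.9% or 33.6%. The Il34 share was 29.8% or 37.6% in testis pericytes (128 or 145 CPM), 44.2% or 56.0% in testis spermatids and 45.3% or 65.9% in TO Sertoli cells, and the Csf1r share of macrophages 95.8% or 97.3% in TOs and 91.1% or 93.6% in testes.

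Among the pathway genes, the calls of Adam17 in macrophages, Pik3r1 in myoid cells and Gab2 in Leydig cells were also lost under 5, 5 and 2 of the alternatives that keep all 4 libraries, those of Irf8 and Kitl in macrophages and of Akt1 and Dcn in Sertoli cells with doublets kept, and that of Pik3cd in Sertoli cells with doublets kept and with no Harmony.

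Counts of all called genes varied more. Over the alternatives they ran from 1735 to 4953 in stromal cells (2746 as reported), 2343 to 4402 in myoid cells (3232), 0 to 2884 in Leydig cells (2178), 3022 to 6232 in Sertoli cells (4374), 1536 to 3137 in macrophages (2122), 136 to 7802 in spermatocytes (6377) and 0 to 1173 in spermatids (0). The 0 in Leydig cells came without the filter, where 6945 genes had an unadjusted p below 0.05. With 2 libraries a group and few ligand UMIs outside the main sources, small differences in Csf1, Il34 or Csf1r were not detectable.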
